A study of Mus musculus with 8 samples.

Results

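The regions described here are gene starts and gene ends at which CG methylation was higher in glycosylase-deficient hippocampus than in wild type (WT). They were chosen by a rule on the deposited medians: in the CG tables of the 3 knockouts, a region at a transcription start site (TSS) or transcription end site (TES) was taken when the mean of its 4 knockout medians was above the mean of its 4 WT medians. The rule took 250 of 4871 CG entries, which came to 220 distinct combinations of gene and feature, each called a key below. All values of knockout against WT were therefore selected on, and they are described with no test. Whole-genome bisulfite sequencing was made on DNA of whole hippocampus from 6-month-old male mice on a C57BL/6N background. The mice were WT, lacked Mutyh (Mutyh-/-), lacked Ogg1 (Ogg1-/-) or lacked both genes (double knockout, DKO). A level averages over all cell types of the tissue, and a change in every cell cannot be told apart from a change in the mix of cells. Each of the 4 genotypes had 2 libraries, 8 in all. Whether these came from different mice is not given in the labels, and the spread between them may be technical. The same 2 WT libraries served all 3 comparisons. The files hold no read counts, so the depth behind each level is unknown and no counting interval can be given. They hold no expression values either, so the labelled tissue could not be checked against its markers.

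Ogg1 excises 8-oxoguanine, an oxidised base, from DNA, and Mutyh removes the adenine that is misplaced opposite it. DNA methyltransferases add a methyl group to cytosine, in adult mammals mainly at CG dinucleotides. Promoters rich in CG dinucleotides (CpG islands) are usually free of this mark, while CG-poor promoters and the DNA around gene ends are often methylated, and methylation of an island promoter is commonly found with silencing of its gene.

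The sequence just before the start differed widely between members, and 6 examples show this range. Each run is the 200 bases before the annotated TSS, read 5′ to 3′ on the gene's strand from RefSeq's GRCm38 genome, the build of the files, and holds no annotated exon. Capitals mark the CG dinucleotides. Irf1 was the CG-rich member of the pair gained in all 3 knockouts (chr11:53769814-53770013, plus strand), and Usp12 was a CG-rich member of low WT level (chr5:146794957-146795156, minus strand). Meg3 is an imprinted gene (chr12:109540796-109540995, plus strand), Idua had the largest gain in Mutyh-/- (chr5:108660131-108660330, plus strand), Rbfox3 is a neuronal marker gene (chr11:118761042-118761241, minus strand) and Brs3 lies on the X chromosome (chrX:57042874-57043073, plus strand).
Irf1: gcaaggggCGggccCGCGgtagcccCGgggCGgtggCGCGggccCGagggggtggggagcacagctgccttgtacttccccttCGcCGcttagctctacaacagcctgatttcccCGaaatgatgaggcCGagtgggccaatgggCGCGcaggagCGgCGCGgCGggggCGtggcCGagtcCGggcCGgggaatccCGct
Usp12: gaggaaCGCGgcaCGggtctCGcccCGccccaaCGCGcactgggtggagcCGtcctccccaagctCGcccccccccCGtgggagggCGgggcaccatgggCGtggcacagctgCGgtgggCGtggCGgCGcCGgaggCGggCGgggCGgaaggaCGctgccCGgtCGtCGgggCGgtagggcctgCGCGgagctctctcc
Meg3: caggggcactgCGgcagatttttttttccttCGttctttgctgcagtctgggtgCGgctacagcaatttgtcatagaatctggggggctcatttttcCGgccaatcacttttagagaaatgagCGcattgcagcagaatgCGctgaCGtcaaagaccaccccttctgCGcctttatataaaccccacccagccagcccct
Idua: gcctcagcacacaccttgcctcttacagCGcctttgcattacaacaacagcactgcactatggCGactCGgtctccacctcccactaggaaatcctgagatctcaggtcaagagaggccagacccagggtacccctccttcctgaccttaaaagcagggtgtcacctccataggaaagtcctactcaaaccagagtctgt
Rbfox3: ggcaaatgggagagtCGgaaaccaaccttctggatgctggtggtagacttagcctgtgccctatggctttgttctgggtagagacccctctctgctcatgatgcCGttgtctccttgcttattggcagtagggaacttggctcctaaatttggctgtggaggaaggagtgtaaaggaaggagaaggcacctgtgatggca
Brs3: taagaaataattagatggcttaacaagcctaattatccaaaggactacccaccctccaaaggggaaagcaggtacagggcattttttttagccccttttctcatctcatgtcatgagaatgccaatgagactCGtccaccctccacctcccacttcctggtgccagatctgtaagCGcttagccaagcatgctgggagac
The run of Usp12 held 27 CG sites and that of Irf1 held 23. Meg3 had 8 in the same length, Idua 3, and Rbfox3 and Brs3 had 2 each. Gains were thus listed at starts of very different CG content.

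Gains made up a minority of the listed gene starts and ends in each knockout. Mutyh-/- had 48 gains among 377 listed TSS regions (12.7%) and 42 among 279 TES regions (15.1%). Ogg1-/- had 38 among 322 (11.8%) and 31 among 194 (16%), and DKO had 40 among 363 (11%) and 51 among 254 (20.1%). Over both features the share of gains was 13.7% in Mutyh-/-, 13.4% in Ogg1-/- and 14.7% in DKO. In gene bodies 48.1%, 57.1% and 57.2% of listed regions were gains. DKO was the knockout with the most gained TES regions and, of the 3, the one in which gains at the TES outnumbered those at the TSS. Counted once per gene and feature, Mutyh-/- had 47 gained TSS and 42 gained TES keys, Ogg1-/- had 38 and 31, and DKO had 37 and 51.

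The gains were close to each other in size, and their size was not particular to gains. Levels are given in percent, as the median over the cytosines of a region that the authors' tool kept, averaged over the pairs a library entered. Which cytosines were kept is not known here, and a window needed methylated sites to be listed. A level therefore need not equal the mean over all CG sites of its window. At the TSS the median WT and knockout levels were 52.8% and 72.8% for Mutyh-/-, 52.5% and 74.1% for Ogg1-/-, and 45.8% and 65.5% for DKO. At the TES the medians were 56.6% and 77.8% for Mutyh-/-, 52.5% and 74.5% for Ogg1-/-, and 54% and 74.5% for DKO. The median gain lay between 20.6 and 21.5 percentage points in all 6 combinations of knockout and feature. Over all 246 keys, counted per knockout, gains ranged from 14.8 to 36.5 percentage points. Under the same listing limit, the 1503 lost keys had a median change of -21.8 percentage points, from -39.5 to -15. At the gained keys the median SD between the 2 libraries of a group was 2.12 percentage points for WT and 2.47 for the knockouts.

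**Figure D1:**
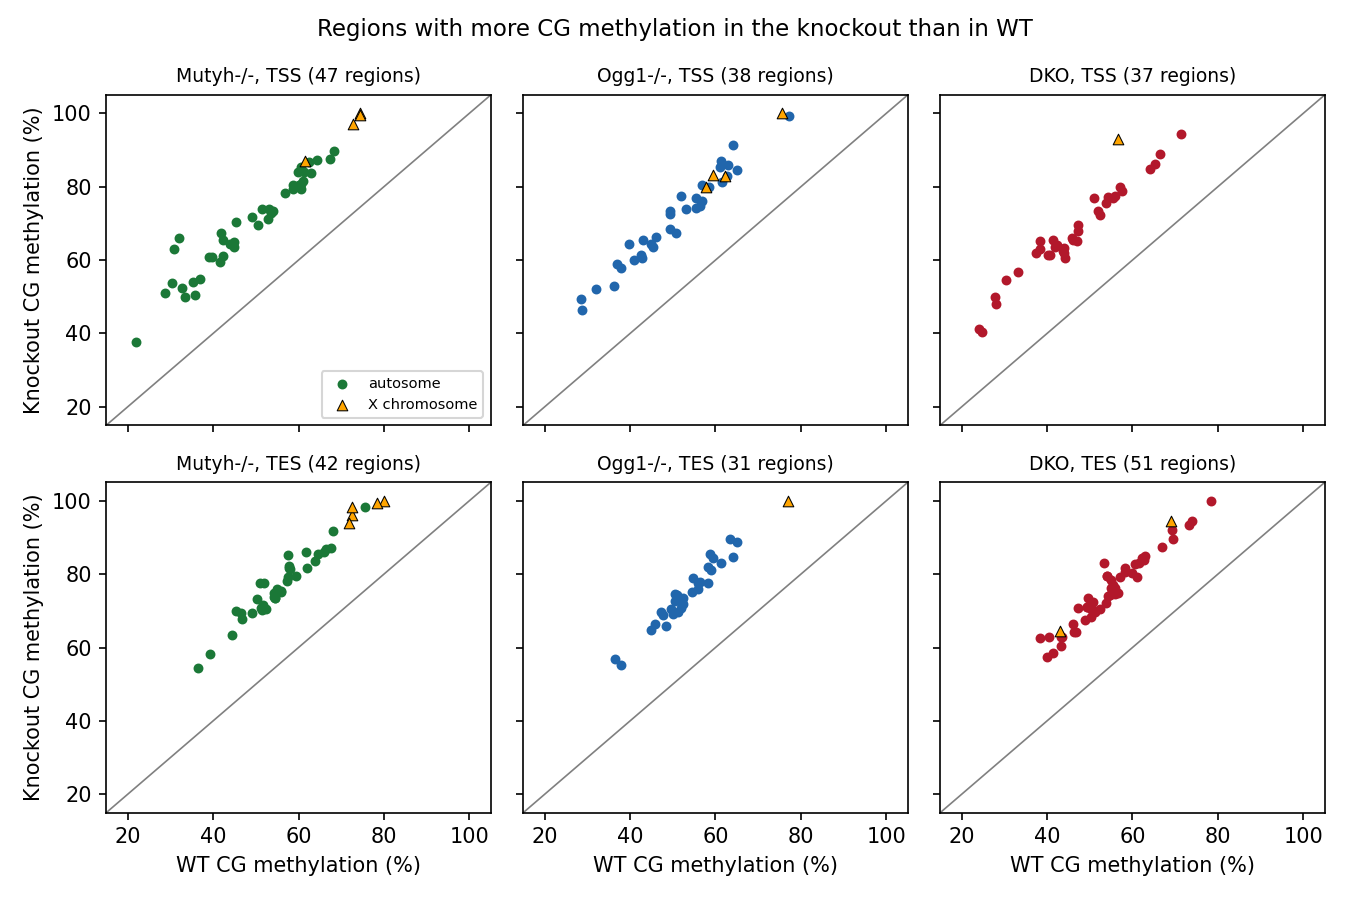
CG methylation in the knockout (vertical axis, percent) against WT (horizontal axis, percent) for every gained key, by knockout and feature, each point a mean of 2 libraries, with the diagonal of no change and triangles for the X chromosome. All points lie above the diagonal because they were chosen so, WT levels run from 22% to 80%, and the gains keep within 14.8 to 36.5 percentage points.

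The lower end of this range was set by the deposited tables, which hold only regions past the authors' limit in every pair of libraries. This limit is relative to the mean methylation of knockout and WT. A smaller gain therefore passes it at a lower WT level. The smallest gains were those of the complement gene C2 in Mutyh-/- (14.8 percentage points at the TSS), of Nyap2 (15.8) and of the glucocorticoid receptor gene Nr3c1 (16.5). In Ogg1-/- they were Cpq (16.5), Fam110a (16.8) and 6430710C18Rik (17.5), and in DKO the myelin glycoprotein gene Omg (15.5), Meg3 (16.3) and Myo1d (17). These smallest gains started from WT levels of 22% (Nyap2) to 50.8% (Fam110a), below the median of 53.1% over all gained keys. The Nr3c1 window was centred 2024 bases from the nearest annotated start of that gene. Just outside the rule, the smallest changes of the other sign were those of Itpr2 (-15.5), Tbx1 (-15.8) and Zbed3 (-16.3) in Mutyh-/-. In Ogg1-/- these were Cbln1 (-15), Nxt1 (-15.5) and Zic2 (-15.5), and in DKO Oaf (-16.5), 2810410L24Rik (-16.8) and Pdgfrb (-16.8). No listed region lay between these values, since the authors' limit left smaller changes out. The gap is a property of the listing, and nothing is read from it about gains and losses.

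In Mutyh-/- all 89 keys had their 4 knockout medians above their 4 WT medians, and so did all 88 keys in DKO. In Ogg1-/- this held for 67 of 69, the exceptions being AK129341 at its TSS and the epithelial sodium channel gene Scnn1a at its TES, where the highest WT median equalled the lowest knockout median (40% at AK129341 and 57% at Scnn1a). Among all listed TSS and TES regions of either direction, the medians were apart in 96.6% in Mutyh-/-, 95.7% in Ogg1-/- and 95.5% in DKO. The separation is thus a property of the tables as deposited, and nothing is read from it about gains.

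Gained regions started from lower WT levels than the regions that lost methylation. The median WT level was 53.1% over gained keys and 70.3% over lost keys. Of the 8 listed keys with WT below 30%, 8 were gains. The lowest score of any listed TSS or TES window was 1.16 on a scale from 1 to 2. A listed loss therefore had little room below a WT level of 30%. Gains were 84 of 173 from 30% to below 50% (48.6%), 138 of 789 from 50% to below 70% (17.5%), and 16 of 779 at 70% or more (2.05%). The score ends at full methylation, and a gain could pass the authors' relative ratio of 0.1 only from a WT level up to 81%. All 321 listed keys above that level were losses. Below it gains were 16.7% of listed keys in Mutyh-/-, 15.8% in Ogg1-/- and 19.3% in DKO. The WT level is part of the rule, so these shares are a description.

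**Figure D2:**
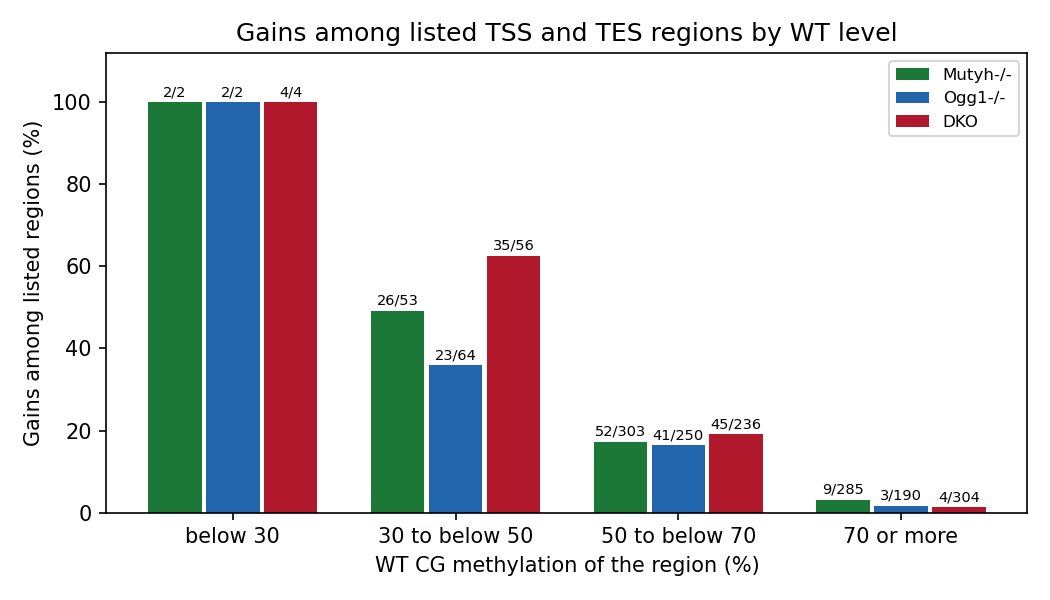
Gains as a percent of listed TSS and TES keys (vertical axis) by WT methylation level (horizontal axis, 4 classes in percent), with bars for the 3 knockouts and the number of gains over the number listed printed on each bar. The share of gains falls from 8 of 8 keys below 30% to 16 of 779 at 70% or more. Listed losses had little room below 30%, and no gain could pass the authors' limit from above 81%.

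The TSS of Irf1, a transcription factor of the interferon response, and the TSS of Kif12, a kinesin motor gene, were the 2 keys gained in all 3 knockouts. At Irf1 (chr11:53769014-53771013, GRCm38) the WT libraries were at 60% and 61% in the Mutyh-/- comparison and the knockout libraries at 85% and 85.5%. In the Ogg1-/- comparison WT was at 60% and 62%, with knockout libraries at 83% and 87.5%. In the DKO comparison WT was at 56% and 58% and the knockout at 81.5% and 78.5%. Every knockout library of Irf1 was thus at least 20 percentage points above every WT library level of its comparison. The mean gains were 24.8 in Mutyh-/-, 24.3 in Ogg1-/- and 23 in DKO.

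Irf1 also held much CG sequence among the gained starts. Its window of 2000 bases had 132 CG sites and an observed over expected CG ratio of 0.739, a measure of how far CG sites are kept compared with the base composition. In the printed run, the letters TTCNNNGAA, the core of the element bound by STAT factors, occurred at bases 111 to 119 from the 5′ end, which is 90 to 82 bases before the start, with a CG site inside. These letters read the same on both strands. They were found in 9.55% of 27025 genes with a RefSeq promoter of 250 bases before to 50 bases after the start, in 11 of 84 genes with a gained TSS (13.1%) and in 49 of 586 with a lost TSS (8.36%). Of the other motifs searched on both strands, TGACNNNGC was in 14% of all genes, 11 of the 84 and 17.7% of the lost, and CACGTG in 8.09%, 11 of the 84 and 12.5%. A match describes the sequence and does not show binding.

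Kif12 differed from Irf1 in composition and was similar in level. Its window (chr4:63171132-63173131) had 43 CG sites and an observed over expected ratio of 0.288. WT libraries were at 58.5% and 61% beside Mutyh-/- libraries at 85.5% and 82.5%. In the Ogg1-/- comparison WT was at 60.5% and 62.5% and the knockout at 83% and 79.5%. In the DKO comparison WT was at 59.5% and 55.5% and the knockout at 76.5% and 81%. The gains were 24.3, 19.8 and 21.3 percentage points, and the SD of either group was at most 3.18. Kif12 was selected on these gains, so nothing is read from their size beside the SD.

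Of the 220 keys, 196 were gained in 1 knockout, 22 in 2 and 2 in all 3. Ogg1-/- and DKO shared 12 keys, which were 17.4% of the Ogg1-/- keys and 13.6% of the DKO keys. Mutyh-/- and DKO shared 9 (10.1% and 10.2%), and Mutyh-/- and Ogg1-/- shared 7 (7.87% and 10.1%). The comparisons share their WT libraries, so a key gained in 2 of them is not 2 independent observations. At the TSS 14 of 106 keys were gained in 2 or 3 knockouts, and at the TES 10 of 114. Each shared key had the same window in each table, except Ptprr, whose windows were shifted.

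Among the keys of Mutyh-/- and Ogg1-/-, Arpc5l, a subunit gene of the actin-nucleating Arp2/3 complex, was the single TES shared. Its libraries were at 83.5% and 87% in Mutyh-/- over WT at 55% and 60%, and at 85.5% and 78.5% in Ogg1-/- over WT at 55.5% and 61%. Brs3, which encodes an orphan receptor of the bombesin family, had 84.5% and 89.5% in Mutyh-/- over 65% and 58%, and 82% and 84.5% in Ogg1-/- over 62.5% and 56.5%. Both genes kept a gap of more than 15 percentage points between the highest WT and the lowest knockout library. Emcn, which encodes the endothelial sialomucin endomucin, gained 20.5 percentage points in Mutyh-/- and 20.3 in Ogg1-/-, from means of 61% and 62.8%. Fndc9 gained 21 and 20 from 39.8% and 37.8%. The synaptotagmin gene Syt5 gained 19 and 24, at a window 974 bases from the nearest annotated start.

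Another 7 keys were shared by Mutyh-/- and DKO alone. Il18r1, a subunit gene of the interleukin-18 receptor, was at 65.5% and 56% in Mutyh-/- over WT at 38% and 40%, and at 65.5% in both DKO libraries over WT at 40% and 42.5%. Rtn4r, the gene of the Nogo receptor that restrains axon growth, was at 67% and 72% at its TES in Mutyh-/- over 48% and 50%, and at 74% and 67% in DKO over 50% and 50.5%. The libraries of each genotype lay apart from WT at both genes. The tyrosine phosphatase gene Ptprr gained 19.3 and 23 percentage points at its TSS, with DKO libraries as different as 84.5% and 70%. Tbc1d24, mutated in human epilepsies, gained 20.3 and 19.3, with WT libraries at 38% and 50% in both comparisons. The inner-ear gene Ceacam16 gained 19.8 and 23.5 at its TES, Fam71e1 gained 21 and 18.5, and Cdk5r1, which encodes the neuronal Cdk5 activator p35, gained 19 and 17.3.

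Ogg1-/- and DKO alone shared 10 keys. Usp12, a deubiquitinase gene, was low in WT, at 31% and 26% beside Ogg1-/- libraries at 52% and 46.5%, and 27.5% and 28% beside DKO libraries at 46% and 54%. Usp12 was also gained at its TES in Mutyh-/-, from 52.5% to 70.5%. Stat6, the transcription factor gene downstream of interleukin-4, was at 68% and 69.5% at its TES in Ogg1-/- over WT at 43.5% and 52%, and at 77.5% and 64% in DKO over 42% and 52.5%. The Stat6 libraries of WT and DKO were spread more widely than those of Usp12. The secreted olfactomedin-like gene Olfml1 had both Ogg1-/- libraries at 64.5% over WT at 39% and 40.5%, and DKO libraries at 63% and 59.5% over 41% and 39.5%. Zc3h3, a zinc finger gene of mRNA export, reached 100% and 84% at its TES in DKO over 68% and 70.5%, and 85% and 84.5% in Ogg1-/- over 60.5% and 67.5%. Zc3h3 thus had 1 DKO library at full methylation and 1 well below.

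The remaining 6 keys of Ogg1-/- and DKO included an imprinted gene. The orphan receptor gene Gprc5b gained 20.3 percentage points at its TES in Ogg1-/- and 21.3 in DKO, and the antisense gene Hnf4aos gained 20.5 and 22.5 at its TES. Traf3ip2, which encodes the interleukin-17 receptor adaptor Act1, gained 18.3 and 20.3 at its TSS, from 45.3% and 45.8%. Meg3, a maternally expressed imprinted non-coding RNA, was at 61.5% and 59.5% in Ogg1-/- over WT at 42.5% and 43%, and at 64.5% and 56.5% in DKO over 45.5% and 43%. Meg3 was 60.5% on average in both knockouts. The non-coding genes Gm14207 and A330040F15Rik gained 20.5 and 18.3 at the TES and 17.8 and 20 at the TSS.

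**Figure D3:**
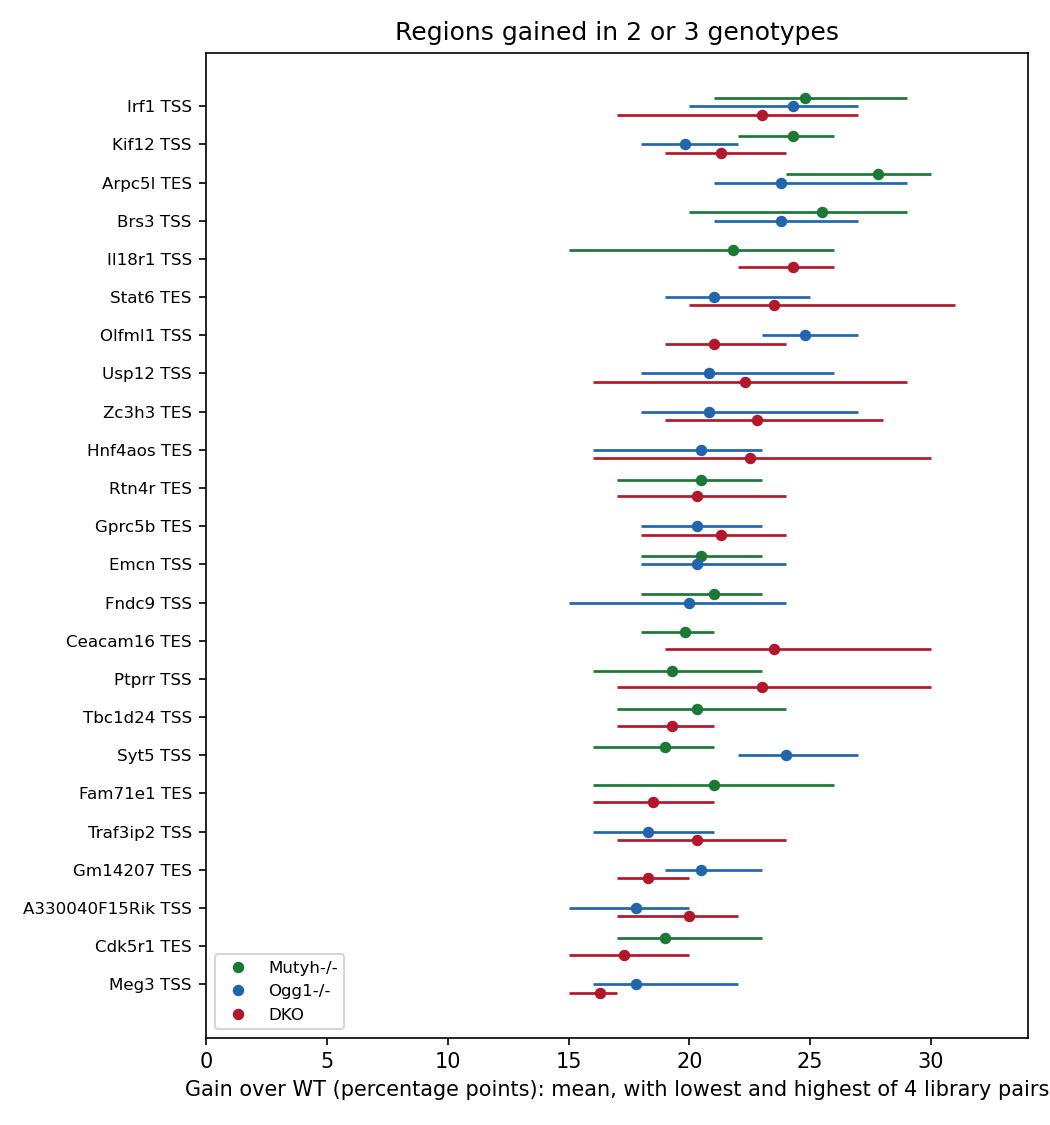
Gain over WT (horizontal axis, percentage points) of the 24 keys gained in 2 or 3 knockouts, as the mean (point) and the lowest and highest of the 4 library pairs (line), coloured by knockout. Irf1 and Kif12 at the top carry 3 points each, and all means lie between 16.3 and 27.8.

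In Mutyh-/- the largest gain was at a start shared by a lysosomal enzyme gene and a lipid kinase gene. Idua, which encodes alpha-L-iduronidase, was at 68% and 64% in the knockout over 34.5% and 29.5% in WT, a gain of 34 percentage points (chr5:108659331-108661330). Dgkq, the gene of diacylglycerol kinase theta on the other strand, gained 32.3 in an overlapping window. These are 2 names for largely the same cytosines. Surf4, which encodes a cargo receptor of the endoplasmic reticulum, was at 66% and 69% over 48% and 35.5%, and Stkld1, whose start overlaps it, gained 25.3. The WT libraries of Surf4 differed by more than 10 percentage points, and both were still below the knockout libraries. On the X chromosome Fam46d went from 73% and 75.5% to 100% in both knockout libraries.

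At the TES in Mutyh-/-, Arpc5l (27.8 percentage points) was followed by Mdk, which encodes the growth factor midkine. Mdk was at 80.5% and 74.5% over WT at 52% and 50%. Rpgr, mutated in human retinitis pigmentosa and X-linked, was at 100% and 96.5% over 80% and 65%. Myadm, a membrane protein gene of myeloid differentiation, was at 76% and 79% over 54.5% and 49.5%. Clcn4-2, a chloride and proton exchanger gene, was at 79% and 61% over 47% and 43.5%. The knockout libraries of Clcn4-2 were 18 percentage points apart, the widest of these genes, and lay above both WT libraries.

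In Ogg1-/- the largest gain was again at a shared start. Lacc1, a laccase-domain gene of macrophage metabolism, was at 100% and 83% over WT at 65% and 63%, and its divergent neighbour Ccdc122 at 96.5% and 77.5% over 62.5% and 60%. The first knockout library was the higher of the pair for both, since the windows share most of their bases. Slc7a11, the cystine-glutamate exchanger gene that feeds glutathione synthesis, was at 79.5% and 75.5% over 54% and 50%. Rbfox3, which encodes the neuronal nuclear antigen NeuN, was at 76.5% and 68.5% over 51.5% and 47%. The X-linked gene Gm1140 was at 100% in both libraries over 76% and 75%.

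At the TES in Ogg1-/- the knocked-out gene itself was among the gains. In DKO, which also lacks Ogg1, the end of Ogg1 was not listed as a gain. A region can be unlisted because its change was smaller or because it failed another of the authors' criteria. The end of Ogg1 was at 86.5% and 91% in the knockout over 66% and 64% in WT, in a window that overlaps the end of Camk1 (chr6:113333124-113335186 for the joined stretch). Camk1, a calcium and calmodulin dependent kinase gene, was at 87% and 92% over 64.5% and 62%. Golga1, a golgin gene of the trans-Golgi whose end overlaps that of Arpc5l, was at 88.5% and 82.5% over 59% and 58.5%. Rab20, a small GTPase gene, was at 81.5% and 87.5% over 62.5% and 56%, and Ap2a1, a clathrin adaptor subunit gene, at 73% and 76% over 51% and 50%. Each of these ends was 24 percentage points or more above WT, except Ogg1 with 23.8. The predicted gene 2300005B03Rik gained 24.3.

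In DKO the largest gain of any knockout was at the TSS of Nrk, an X-linked kinase gene. Nrk was at 100% and 86% over WT at 57% and 56%, a gain of 36.5 percentage points (SD 9.90 in DKO and 0.707 in WT, n = 2 each). Dnajc18, a DNAJ-type co-chaperone gene, was at 74% and 56.5% over 40.5% and 36%. The DKO libraries of both genes were far apart, with the first the higher. Stard13 was at 67% and 57% over 35% and 40%. Zbtb3, a zinc finger gene listed with 2 windows, gained 24.8 and 22.3, and the non-coding gene AU019990 gained 26.

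At the TES in DKO, Scn2b, a sodium channel beta subunit gene, was at 86% and 73% over WT at 59% and 49%. Nme9, of the nucleoside diphosphate kinase family, was at 86.5% and 72.5% over 55% and 53%, and the X-linked kinase gene Araf at 95% and 94% over 68% and 70%. These 3 genes had the same mean gain of 25.5 percentage points, with the DKO libraries close together at Araf and apart at the other two. Rpl11, a ribosomal protein gene, was at 65.5% and 59.5% over 36% and 40.5%. The predicted gene Gm1604b had the largest TES gain, 29.8, from 53.3% to 83%.

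**Figure D4:**
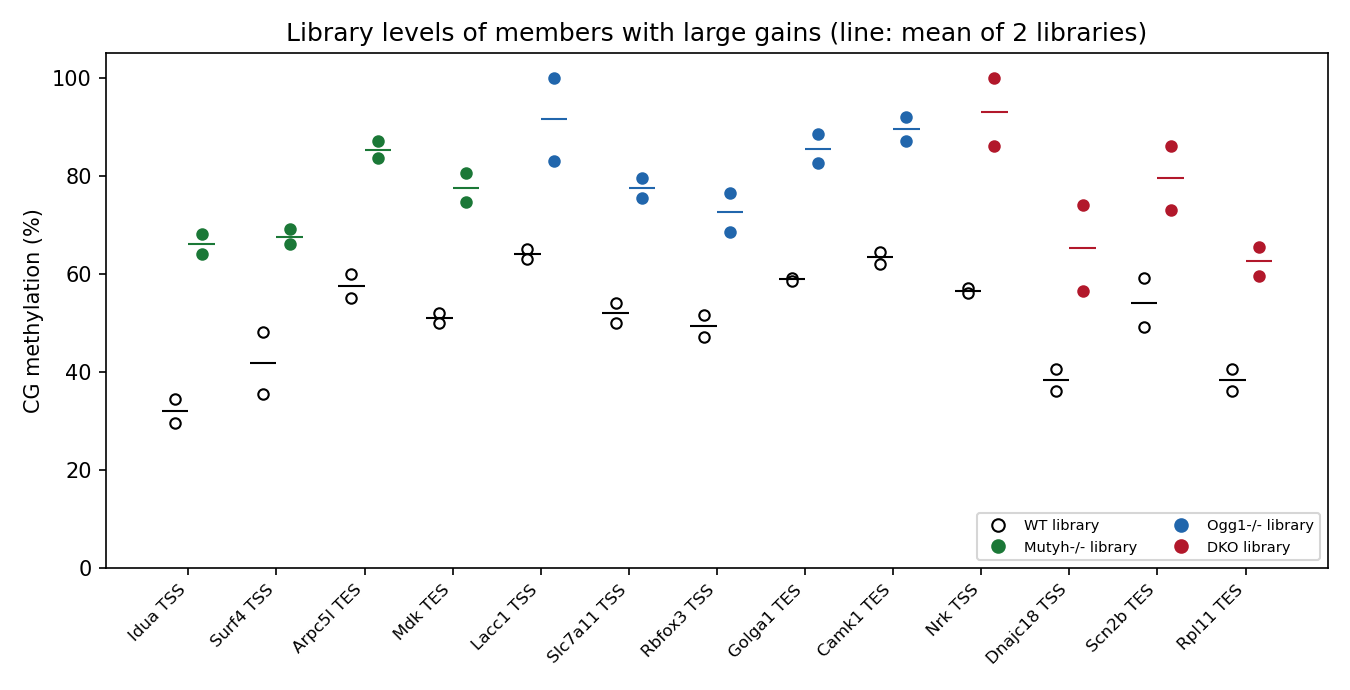
CG methylation (vertical axis, percent) of each WT library (open circles) and each knockout library (filled circles, coloured by knockout) at 13 members with large gains, with short lines for the mean of the 2 libraries. The knockout libraries sit above the WT libraries at every gene shown, with the widest spread at Lacc1 and Dnajc18.

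Several gains were one stretch of genome read under more than 1 gene. In Mutyh-/- 90 entries covered 83 separate stretches, in Ogg1-/- 69 covered 66 and in DKO 91 covered 84. Pairs of different genes shared a stretch in 13 cases. In Mutyh-/- these were Idua with Dgkq and Surf4 with Stkld1 at the start, Cnih2 with Yif1a at the end, Msx1 at its end with the start of its antisense gene Msx1os, Ceacam16 with Gm19345, and Gm15127 with Gm15097. In Ogg1-/- they were Lacc1 with Ccdc122, Arpc5l with Golga1, and Camk1 with Ogg1. In DKO they were Nab2 with Stat6, Cdk5r1 with Myo1d, Lgals2 with Cdc42ep1, and Gprc5b with Iqck, all at the end. Across knockouts the end of Fuz in Mutyh-/- (51.3% to 70.8%) shared 1748 bases with the end of Ap2a1 in Ogg1-/- (50.5% to 74.5%), a shared stretch that the gene names do not show.

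The X chromosome held 17 of the 246 gained keys, from 16 genes. Mutyh-/- had 9 of them (10.1% of its 89 keys), Ogg1-/- had 5 (7.25% of 69) and DKO had 3 (3.41% of 88). Of the lost keys 5.05%, 4.35% and 7.23% were X-linked. The X-linked gains started higher, at a median WT level of 72.5% against 52.3% on autosomes, and ended at a median of 96% against 73.5%. Lost keys also started higher on the X chromosome, at a median WT level of 96.3% against 69.3% on autosomes. The higher X-linked WT level was thus not particular to gains. A knockout level of 95% or more was reached by 9 of the 17 X-linked keys and by 3 of the autosomal ones. Besides Fam46d and Gm1140, knockout libraries were at 100% in both replicates at the ends of Atp7a, a copper transporter gene, in Mutyh-/- and of Gpc3, a glypican gene, in Ogg1-/-. Atp7a started from 80% in both WT libraries and Gpc3 from 78% and 76%, so these gains ended at the top of the scale. The end of Slc28a3, a nucleoside transporter gene on chromosome 13, also reached 100% in both DKO libraries, from 77% and 80%.

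Gained starts had fewer CG sites than the starts that lost methylation. Over distinct keys the median window of 2000 bases at a gained TSS had 36.5 CG sites (quartiles 26 and 68.3) against 55 at a lost TSS (34 and 84.3). Over 58453 annotated starts of protein-coding transcripts the median was 61. In the central 1000 bases the medians were 19.5 and 34. At the TES the medians were 29.5 for gains and 32 for losses, with 21 over 37882 annotated ends. The share of windows with an observed over expected CG ratio of 0.6 or more was 17.9% at gained and 18.8% at lost starts, and 34% over all annotated starts. So the share of CG-rich starts was about the same in gains and losses while the middle of the distribution was lower in gains. Windows were not tested against each other, since overlapping windows and alternative starts are not replicates.

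The 19 CG-rich gained starts included several low in WT. Nkx6-2, a homeobox gene of oligodendrocyte and neural tube development, was at 43.5% and 39% in DKO over 22.5% and 25.5% and had 163 CG sites. Itpka, which encodes an inositol trisphosphate kinase of dendritic spines, was at 55% and 47% in Mutyh-/- over 26.5% and 31%. Rbm28, a nucleolar RNA-binding protein gene, was at 49.5% and 58% in Mutyh-/- over 29% and 31.5%. At all these starts the 2 knockout libraries lay above both WT libraries and reached at most 58%. Atxn7l3b (41.8% to 63.5%) and the ribosomal gene Rpsa (46% to 65.5%) in DKO and the volume-regulated anion channel gene Lrrc8d (37% to 54.8%) and Cmtm6 (42.3% to 65.5%) in Mutyh-/- were other CG-rich starts. CG-rich ends numbered 3: Clcn4-2, Dhrs4 and Manf. The labelled end of Manf lay 1339 bases from the annotated one, in a window that also held the start of Rbm15b. Among gained TES windows 13 of 114 held the start of another gene (11.4%), against 9.94% of lost TES windows.

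The same window was a gain in 1 knockout and a loss in another at 14 keys, in 16 comparisons of tables. Cnnm4, a magnesium transport gene, was a gain in DKO, with libraries at 54.5% and 59% over WT at 36.5% and 30%, and a loss in Ogg1-/-, from a WT mean of 65.3% to 38.8%. Cpq, a peptidase gene, was a gain in Ogg1-/- from 36.3% to 52.8% and a loss in DKO from 65.3% to 43.5%. Arhgdib was a gain in DKO from 40.8% to 61.5% and a loss in Ogg1-/- from 63.8% to 41.8%. In each of these genes the same 2 WT libraries at the same window carried different levels in the 2 tables. Cdk5r1 was a gain at its TES in Mutyh-/- and DKO and a loss in Ogg1-/- (55.3% to 35.3%), and Gprc5b was a gain in Ogg1-/- and DKO and a loss in Mutyh-/- (70.3% to 52.3%).

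Over these 16 comparisons the WT level differed between the tables by a median of 16.4 percentage points, from 11.8 to 32, and was lower in the table with the gain in all 16. The median WT level was 42.3% where the window was a gain and 63.6% where it was a loss. For the 23 windows that were gains in more than 1 table, WT differed by a median of 1.5 percentage points and at most 5.25. For 198 windows that were losses in more than 1 table it differed by a median of 2.25 and at most 21.3. Within 1 table, the value of a WT library at a gained key differed between its 2 pairs by a median of 3 percentage points, and by over 10 in 20 of 492 WT values and 14 of 492 knockout values. At lost keys the median for WT was also 3, with over 10 in 364 of 3006 WT values and 235 of 3006 knockout values. The largest such WT difference was 20 at gained and 48 at lost keys. The WT level thus moved with the direction of the call at these 14 keys, and its part in the opposite directions was not tested. The direction of the WT difference is in part fixed by comparing a gain with a loss.

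The remaining windows of opposite direction belonged to genes of several kinds. Nyap2, a neuronal adaptor gene of PI3-kinase signalling, was a gain in Mutyh-/- from 22% to 37.8% and a loss in Ogg1-/- from 43.8% to 26.5%. The homeobox gene Phox2a at its TES was a gain in Mutyh-/- (46.8% to 67.8%) and a loss in Ogg1-/- (63.5% to 42.3%). Tmem140 at its TES was a gain in Ogg1-/- (52.3% to 71.8%) and a loss in Mutyh-/- (77.3% to 52.8%). These 3 genes differed in direction between the single knockouts. Against DKO, the protocadherin gene Pcdha3 (41.5% to 59.5%, then 63.3% to 35.5% in DKO) and the pericyte receptor gene Pdgfrb (44.8% to 63.5%, then 59.5% to 42.8%) were gains in Mutyh-/-. Scimp, an immune adaptor gene (64% to 44%, then 44% to 62%), Gpr50, an X-linked receptor gene (54.8% to 34.8%, then 43% to 64.5%), and Urm1, a ubiquitin-like modifier gene (67% to 44.8%, then 53.8% to 72%), were losses in Mutyh-/- and gains in DKO. The Gpr50 window was centred 1168 bases from the nearest annotated end of that gene. Myo1d, an unconventional myosin gene, was a loss in Ogg1-/- (54.3% to 37.5%) and a gain in DKO (41.5% to 58.5%) at its TES.

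**Figure D5:**
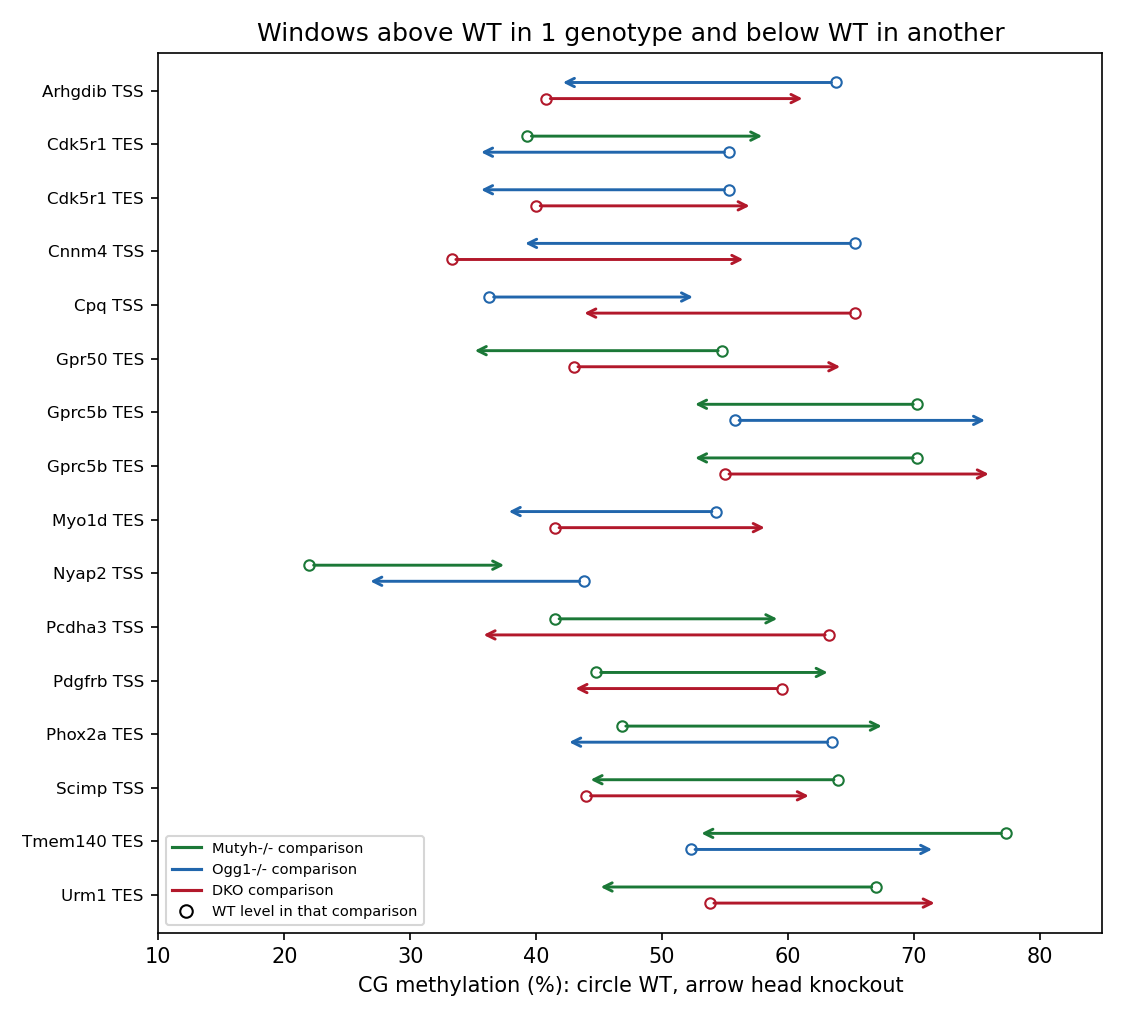
CG methylation (horizontal axis, percent) at the windows listed in opposite directions in 2 knockouts, 16 comparisons from 14 keys, with a circle for the WT mean and an arrow to the knockout mean, coloured by the comparison. In all 16 the 2 circles are apart, the one of the gain lying lower by 11.8 to 32 percentage points.

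Another 6 keys had a gain and a loss in different windows. Within Mutyh-/- or Ogg1-/- alone, alternative windows of 4 genes went in opposite directions. At the TSS of Slc29a1, a nucleoside transporter gene, 1 window was a gain in Mutyh-/- (61.3% to 84%) and another a loss (80.3% to 59%). Arpp21, which encodes a cyclic AMP regulated phosphoprotein of neurons, had a gain from 45% to 65% and a loss from 68.3% to 47.5%, and Kng1 at its TES had 68% to 91.8% and 68% to 51%, all in Mutyh-/-. Fam110a had 50.8% to 67.5% and 61.5% to 39% in Ogg1-/-. The direction at these genes therefore depended on which annotated start or end was read. Speg and A530013C23Rik had opposite directions in different windows of different knockouts.

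Some gained genes had another listed region. Of the 89 Mutyh-/- keys, 4 had a CG gene-body region listed as a gain and 5 one listed as a loss. The counts were 3 and 3 among the 69 Ogg1-/- keys, and 1 and 5 among the 88 DKO keys. The same counts were not made for lost keys, so nothing is read from their size. Nrk in DKO was a gain in its gene body too (70.5% to 93.3%), as were Gpc3 in Ogg1-/- (59.3% to 82.3%) and the teneurin gene Tenm1 in Mutyh-/- (67.8% to 94.5%), all X-linked. Autosomal genes with such gains were Ccdc122 in Ogg1-/- (46% to 73%) and Arpp21 in Mutyh-/-, with 3 gene-body regions (59.5% to 76.8% in the first). Slc7a11 in Ogg1-/- was instead a loss in its gene body (75.3% to 56.5%), and so was Phc2, a Polycomb subunit gene, in DKO (71.3% to 49.8% and 67% to 49% in its 2 gene-body regions). At the opposite end, Mdk was a loss at its TSS in Mutyh-/- (55.8% to 34.3%), Stat6 at its TSS in DKO (52% to 30%) and the actin-binding synaptopodin gene Synpo at its TSS in Ogg1-/- (59.8% to 38.5%). No gained gene had a gain at its other end in the same knockout.

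Outside the CG context, 2 gained keys had a CHH region at the same feature, where H is A, C or T. In DKO, Mest, a paternally expressed imprinted gene, was a CG gain at its TSS (43.5% and 44% in WT, 62.5% in both DKO libraries) and a CHH loss, from 47% and 42.5% to 31% and 26%. Urm1 was a CG gain at its TES in DKO and a CHH loss there, from 51% and 49% to 31.5% and 25%. In both cases the CG and CHH levels of the same window went in opposite directions. CHH levels are medians over the cytosines kept by the authors' tool, and not the mean over all CHH sites.

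Gene lists of synaptic, developmental and cell type genes held few of the gains. Over all 22 lists, 20 gained and 115 lost keys were list members, a share of gains of 14.8%, beside 14.1% over all keys (246 gains and 1503 losses). Developmental transcription factors had 2 gains (Nkx6-2, and Msx1 from 54.5% to 73.5% at its TES in Mutyh-/-) and 26 losses. Voltage-gated channels had 3 gains and 8 losses, the gains being Scn2b, the T-type calcium channel gene Cacna1h at its TES in DKO (60.5% to 82.8%) and the potassium channel gene Kcna5 at its TSS in Ogg1-/- (46% to 66.3%). Imprinted genes had 3 gains, from Meg3 and Mest, and 11 losses. Neuron markers had 2 gains, Rbfox3 and Thy1 at its TES in DKO (48.8% to 67.5%), and 1 loss. Lysosomal genes had 2 gains, Idua and the cathepsin K gene Ctsk at its TSS in Mutyh-/- (53% to 74%), and 2 losses.

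The lists with a single gain were Polycomb and Trithorax machinery (Phc2 at its TSS in DKO, 47.3% to 69.5%, beside 6 losses), base excision repair (Ogg1, beside 4 losses) and glutamate receptors and synapse (the AMPA receptor auxiliary gene Cnih2 at its TES in Mutyh-/-, 54.3% to 73.8%, beside 2 losses). Axon guidance had Ntng2, a netrin-G gene, at its TSS in Mutyh-/- (60% to 80.5%, beside 10 losses), and Wnt signalling had Wnt8b at its TES in Mutyh-/- (36.5% to 54.3%, beside 7 losses). Plasticity and CREB signalling had Camk1 beside 5 losses, antioxidant and glutathione genes had Slc7a11 beside 1 loss, and vessel and choroid plexus markers had Pdgfrb beside 1 loss. Lists with no gain were extracellular matrix and collagens (12 losses), GABA synapse, astrocyte markers and chemokines and their receptors (4 losses each), oligodendrocyte markers (3), DNA methylation machinery, immediate early genes, and protocadherins and cadherins (2 each). Microglia and immune markers had neither. The lists are not complete: the gained genes Phox2a, Pcdha3 and Omg, named above as a homeobox, a protocadherin and a myelin gene, are in none of them. No list was tested against the others.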

How the data were processed

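CG methylation was measured by whole-genome bisulfite sequencing in 8 hippocampal libraries, 2 for each of 4 genotypes grouped by their labels. The authors trimmed and aligned reads to GRCm38 with Bismark 0.22.3, removed cytosines with coverage under 4, and with HMST-Seq-Analyzer compared each knockout library with each WT library, which gave 4 pairs per knockout. TSS and TES windows are 2000 bases long and needed 3 methylated sites no more than 200 bases apart. The authors called regions by a rank-sum test within each pair, kept those common to the 4 pairs and filtered them at a relative ratio of 0.1. Smaller changes are thus not listed, and an unlisted region may also have failed the test or the site and coverage limits. The authors deposited the median of each region and pair as a score from 1 to 2, which was read here as 1 plus the methylated fraction and printed as a percent. Reading the scale so rests on its range, not on a stated definition. The authors' own p-values and relative ratios per pair are in the same tables and were not used. The DKO table of the CHG context held a header only and was not used.

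Each library's level was the mean over the 2 pairs it entered, and SD is between the 2 libraries of a group. Regions were counted once per gene symbol and feature. The members and the 22 gene lists were chosen with earlier results of these data known, and no test was made. Of 219 gene symbols, 205 matched RefSeq by symbol, 10 by synonym and 1 after its separator was restored, and 3 did not match. Of 247 windows with a matched gene, 231 were centred within 50 bases of an annotated end or start. Genes were named by rule: the 5 largest gains per knockout and feature, the 3 smallest with the 3 smallest losses, all keys gained in more than 1 knockout or in opposite directions, list members, keys with a region in another context at the same feature, and genes sharing a stretch. Other genes named for X linkage, CG content, gene bodies or non-separating medians were chosen after their values were seen. Counting by entry or merged stretch, size limits, the smallest pair, other overlap rules, a central window and leaving out each library were tried as alternatives. Scripts used Python 3.11.15, pandas 2.3.3, numpy 2.4.6 and pysam 0.24.0 and were tested on simulated data.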

Additional observations from a re-analysis of the deposited data

Results flagged for a closer look

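At 14 keys every library pair of 1 knockout was above WT and every pair of another was below it, at the same window. The difference between the knockouts was not tested. Both comparisons used the same WT libraries, but their levels stood 11.8 to 32 percentage points apart in the 2 tables, and the knockout levels themselves differed by a median of 21.5. The changes of the 2 knockouts differed by 50 percentage points at the TSS of Cnnm4 (Ogg1-/- and DKO), 45.8 at Pcdha3 (Mutyh-/- and DKO), 42.8 at Arhgdib (Ogg1-/- and DKO) and 38.3 at Cpq (Ogg1-/- and DKO). At the TSS of Scimp they differed by 38 and at Pdgfrb by 35.5 (both Mutyh-/- and DKO), and at Nyap2 by 33 (Mutyh-/- and Ogg1-/-). At the TES, Mutyh-/- and Ogg1-/- differed by 44 at Tmem140, 42.3 at Phox2a, 39 at Cdk5r1 and 38.3 at Gprc5b. Mutyh-/- and DKO differed by 41.5 at Gpr50, 40.5 at Urm1 and 39.3 at Gprc5b. Ogg1-/- and DKO differed by 37.3 at Cdk5r1 and 33.8 at Myo1d.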

How the results depend on the processing

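The count of gained keys stayed within 1.5 times of 89, 69 and 88 (Mutyh-/-, Ogg1-/- and DKO) under each way of counting, with 60, 48 and 61 keys at a mean gain of 20 percentage points or more. Taking the smallest of the 4 pairs in place of their mean moved the median gain to 18 percentage points for both features in Mutyh-/- and in Ogg1-/-, and in DKO to 17 at the TSS and 18 at the TES. With a gain of 20 percentage points or more required in each knockout, 14 keys in place of 24 were shared. Matching by overlap gave 31 shared keys under any symbol and 30 for the same feature, some of them further names for a stretch already shared. Among these overlaps of different genes, only Fuz with Ap2a1 held no key that was already shared. Leaving out 1 library at a time gave median gains of 20.5 to 21 (TSS) and 20 to 21 (TES) in Mutyh-/-, 20.5 to 21.3 and 21 to 22 in Ogg1-/-, and 19.5 to 22 and 19.5 to 21.5 in DKO. The 984 gains of single regions recomputed this way ranged from 13.5 to 39.5, and 102 moved by 1 SD or more. None could fall to 0 or below, because every pair of every key was already a gain. No paired analysis was possible because the results, selected on these same library pairs, come from no test. The depth behind each region is unknown, and the listing threshold removes small changes.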
